A study of Mus musculus with 39 samples.

Results

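The proteasome subunit genes of the mouse were followed in testes that matured in the animal and in testes kept in organ culture. Members were all probes whose gene symbol begins with Psma, Psmb, Psmc, Psmd or Psme followed by a digit and that were detected (detection p below 0.01) on 3 or more arrays. The symbol rule matched 79 probes of 44 genes, and 65 probes of 38 genes were detected often enough, out of 23665 probes of 12518 genes kept from the whole array. One of the 38, Psme3ip1, encodes a partner of the activator subunit Psme3 and is not a subunit, which leaves 37 subunit genes: 5 immune forms (Psmb8, Psmb9, Psmb10, Psme1 and Psme2), the testis form Psma8, and 31 standard subunits. The 31 are counted by symbol and include factors of cap assembly, such as the chaperone Psmd5. Psma1, Psma3, Psma6, Psmc6, Psmd3 and the thymus form Psmb11 had no probe that passed.

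Testes of 7.5 days post partum (dpp) were the starting tissue of the cultures, and RNA was hybridised to Illumina bead arrays. The groups were cultured testes at days 2, 4, 6, 7, 9 and 14, testes taken from animals at 9.5, 11.5, 13.5, 14.5, 16.5 and 21.5 dpp, which are the matching ages, and the starting testes of 7.5 dpp. The labels give no strain, genotype or treatment and describe all samples as male testis. Each group had 3 arrays, except 13.5 dpp in vivo with 2 here. Whether the arrays of a group stem from different animals is not stated in the labels, and the p-values therefore measure only the spread between these arrays.

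The proteasome is a barrel of stacked alpha and beta rings in which beta subunits cut proteins that a regulatory cap of ATPases and ubiquitin receptors has unfolded and fed in. Interferon can swap the cutting subunits Psmb5, Psmb6 and Psmb7 for the immune forms Psmb8, Psmb9 and Psmb10, and Psme1 and Psme2 form an ATP-independent activator; both changes are known for supplying peptides to MHC class I molecules. In male germ cells the alpha subunit Psma8 takes the place of Psma7, and mice without Psma8 do not complete meiosis.

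Promoter stretches of Psmb8, Psmb9 and Psme1 are shown because these genes were called higher in culture and because immune genes are usually searched for interferon motifs. They come from RefSeq on build GRCm38.p6, in which 31 of the 37 subunit genes matched a promoter record of 300 bases. Capitals mark a match to TTCNNNGAA (gamma-activated site) in Psmb8 and to the interferon-stimulated element (GAAA, any 2 bases, GAAA, here read on the opposite strand) in Psme1; N is any base and both strands were searched. The Psmb8 stretch is chr17:34197945-34198194 on the plus strand, directly before the start of the gene. The Psmb9 stretch, chr17:34187331-34187555 on the minus strand, is the 225 bases between the start of Psmb9 and that of the peptide transporter gene Tap1, which runs the other way. The Psme1 stretch is chr14:55578493-55578522 on the plus strand, around the start of the gene.
Psmb8: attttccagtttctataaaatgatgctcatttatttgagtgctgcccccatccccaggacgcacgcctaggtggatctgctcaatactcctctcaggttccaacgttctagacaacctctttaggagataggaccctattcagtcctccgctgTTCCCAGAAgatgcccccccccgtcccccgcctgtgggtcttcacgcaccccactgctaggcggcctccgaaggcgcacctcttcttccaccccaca
Psmb9: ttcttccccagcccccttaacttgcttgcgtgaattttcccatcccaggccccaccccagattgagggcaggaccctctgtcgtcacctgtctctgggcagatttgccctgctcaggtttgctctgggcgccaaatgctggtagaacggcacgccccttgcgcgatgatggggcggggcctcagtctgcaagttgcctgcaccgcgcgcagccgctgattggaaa
Psme1: cgagctgtgcTTTCGCTTTCccttcccgct
Over the records of subunit genes, the interferon-stimulated element was found in 4 of 31 (Psmb3, Psmd4, Psmd9 and Psme1; 12.9%), against 3.44% of all 32851 promoters in the table. TTCNNNGAA was found in 2 of 31 (Psmb8 and Psmd2; 6.45%), against 8.3% of all promoters. An antioxidant-type motif, TGACNNNGC, was found in 5 of 31 (Psmb5, Psmb6, Psmd12, Psmd9 and Psme4; 16.1%), against 12.4% of all. The windows of Psmb9, Psmb10 and Psme2 hold none of these letters. A match describes the letters only.

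On each array 35.6% to 43.9% of all probes were detected, and arrays of a group correlated with each other at Pearson r of 0.929 to 0.992 over all kept probes. The germ cell genes Ddx4 and Dazl were detected in every group, as fits testis. Of 38 arrays, 5 stood apart: they correlated better with another group than with their own while the other arrays of their group agreed more closely with each other (by over 0.015 in r). These were cultured day 4 replicate 3, cultured day 6 replicate 3, and the in vivo arrays 9.5 dpp replicate 2, 16.5 dpp replicate 2 and 16.5 dpp replicate 3. For subunits at days 2, 4, 6 and 9, values without them are given beside the result; without them 16.5 dpp has 1 array, which is then assumed to vary like the other groups.

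Few subunits differed by 2-fold between culture and testis in vivo, and the 5 immune forms were each among those that did at 1 time or more. A gene was called when limma gave an adjusted p below 0.05 and a difference of at least 2-fold. By this rule 12 of 37 subunits were called in at least 1 of 13 comparisons, and 25 of 31 standard subunits in none. The 12 are 32.4% of the subunits, against 63.2% of all 12518 genes by their brightest probe and 61.8% of all probes called at least once. Against in vivo testes of the same age, 3 of 37 subunits (8.11%) were called at culture day 2, where 8.87% of all probes were. The count was 3 at day 4 (background 9.73%), 2 at day 6 (background 8.28%), 4 at day 7 (background 10.7%) and 2 at day 9 (background 8.49%). At day 14 it was 7 of 37 (18.9%), against 33% of all probes. In all 6 comparisons the share of subunits was near or below that of the array as a whole, so the results below concern single subunits and not the family.

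**Figure D1:**
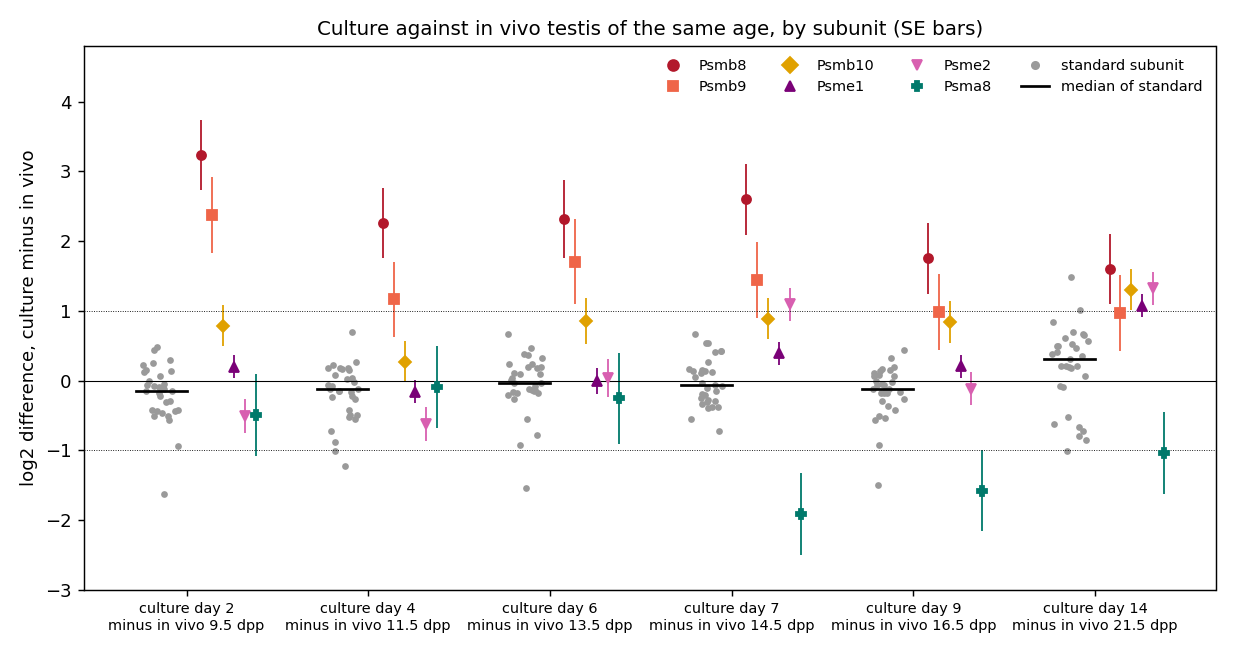
Difference in log2 level between culture and in vivo testis of the same age (y axis) at the 6 culture times (x axis). Grey points are the 31 standard subunits with their median as a bar, coloured symbols are the immune forms and Psma8 with standard errors, and dotted lines mark 2-fold. Psmb8 stood above every standard subunit at all 6 times, and the standard medians lay between -0.15 and 0.31. Without the arrays that stood apart, Psmb8 at day 9 was 0.20, below the standard subunit Psmd8 at 0.65.

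The plot of differences by culture time sets the immune and testis forms beside the standard subunits. The median difference of the 31 standard subunits was -0.15 at day 2, -0.12 at day 4, -0.03 at day 6, -0.06 at day 7, -0.12 at day 9 and 0.31 at day 14. The median of all probes was within 0.06 of 0 at the first 5 of these times and 0.23 at day 14. The medians of the 5 immune forms were higher, at 0.79, 0.27, 0.85, 1.09, 0.84 and 1.31 in the same order of days.

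Psmb8, the immune form of the chymotrypsin-like subunit, differed most from in vivo testis early in culture. At day 2 its log2 levels were 11.56, 10.36 and 10.60 in culture, against 8.39, 7.40 and 7.03 in vivo at 9.5 dpp. Every cultured array was above every in vivo array, and the difference was 3.24 ± 0.50 (SE), or 9.42-fold (limma, adjusted p = 2.95e-05). Without the 9.5 dpp array that stood apart it was 3.13 (adjusted p = 4.7e-05). Relative to the starting tissue (6.64, 7.01 and 6.40) the rise was 17.9-fold (adjusted p = 5.35e-07).

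Later culture times were lower but stayed above in vivo testis. Psmb8 had 9.86, 9.54 and 8.67 at day 4, against 7.99, 6.58 and 6.71 in vivo at 11.5 dpp, a difference of 2.26 (adjusted p = 0.0017). It had 9.41, 9.80 and 9.17 at day 6, against 7.17 and 7.11 at 13.5 dpp, a difference of 2.32 (adjusted p = 0.00448). Neither pair of groups overlapped, and without the arrays that stood apart the differences were 2.61 and 2.47. At day 7 the levels were 8.29, 9.70 and 8.91 in culture, against 6.02, 7.02 and 6.06 in vivo at 14.5 dpp, or 6.06-fold higher (adjusted p = 0.000415). At day 14 they were 7.90, 8.07 and 7.96 in culture, against 6.04, 6.35 and 6.72 at 21.5 dpp, or 3.04-fold higher (adjusted p = 0.00754). On the authors' deposited log2 values the day 14 difference was 0.67 and missed the threshold (adjusted p = 0.077).

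The day 9 difference rested on few arrays. Psmb8 had 8.47, 9.89 and 9.73 in culture, against 9.17, 7.10 and 6.57 in vivo at 16.5 dpp. The groups overlapped through the first in vivo array, and the difference of 1.75 passed the test (adjusted p = 0.0134). Leaving out 1 array at a time gave 1.23 to 2.53 and lost that call in 4 of 6 cases (cultured replicates 2 and 3, 16.5 dpp replicates 2 and 3). Without the 2 arrays of 16.5 dpp that stood apart it was 0.20 (adjusted p = 0.871). A second, dimmer Psmb8 probe was called higher at days 2, 4, 6 and 9, at least 3.85-fold at day 2, where it was not detected on any in vivo array; its day 14 difference was 0.15 and not called. The order of the culture means ran from day 2 down to day 14, with days 4, 6, 7 and 9 between; the arrays of those 4 times overlapped each other.

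Psmb9, the immune form of the caspase-like subunit, was likewise highest at day 2 and lowest at day 14 in culture, with a wider spread. Its levels at day 2 were 10.71, 9.73 and 9.44 in culture, against 7.46, 8.25 and 7.04 in vivo at 9.5 dpp. The groups did not overlap, and the difference was 2.38 ± 0.54, or 5.19-fold (adjusted p = 0.00204), and 2.71 without the 9.5 dpp array that stood apart. Against the starting tissue (6.48, 7.63 and 6.56) it was 8.39-fold higher (adjusted p = 0.000135). At day 7 the levels were 7.10, 7.79 and 7.74 in culture, against 6.09, 6.29 and 5.91 at 14.5 dpp. That difference of 1.44 was at the edge of the test (adjusted p = 0.047), and leaving out any 1 of its 6 arrays lost the call. It was 0.98 with median centring (adjusted p = 0.146) and 0.52 on the authors' deposited log2 values (adjusted p = 0.248).

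At the remaining times Psmb9 was not called: the differences were 1.16 at day 4 (adjusted p = 0.119), 1.70 at day 6 (adjusted p = 0.0546), 0.99 at day 9 (adjusted p = 0.203) and 0.97 at day 14 (adjusted p = 0.13). The arrays that stood apart weighed on 3 of these. Without them the difference was 1.59 at day 4 (adjusted p = 0.00644) and 2.14 at day 6 (adjusted p = 0.00166), both called, and -0.82 at day 9 (adjusted p = 0.316). The day 9 value was 1.89, and called, when 16.5 dpp replicate 1 alone was left out (adjusted p = 0.00954). At day 14 the cultured arrays, 7.03, 6.37 and 6.63, were all above those at 21.5 dpp, 5.58, 5.79 and 5.74.

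Psmb10, the immune form of the trypsin-like subunit, was called against in vivo testis at the end of culture. Its levels at day 14 were 10.17, 9.82 and 9.31 in culture, against 8.31, 8.71 and 8.36 in vivo at 21.5 dpp, or 2.47-fold higher (adjusted p = 0.000423). No array overlapped between the groups, and the in vivo arrays at 21.5 dpp were also below those at 14.5 dpp (9.33, 9.71 and 9.52) by 1.06 (adjusted p = 0.00317), which fell under 2-fold without 14.5 dpp replicate 2 or 21.5 dpp replicate 1. At day 2 the culture held 11.92, 10.86 and 11.04, against 9.94, 11.48 and 10.04 at 9.5 dpp. The difference of 0.79 was not called (adjusted p = 0.0543). The 9.5 dpp array at 11.48, which stood apart, lies above 2 of the cultured arrays, and without it the difference was 1.29 (adjusted p = 0.0016). Against the starting tissue, 9.23, 10.24 and 10.05, day 2 was 2.70-fold higher (adjusted p = 0.0008). With array quality weights that difference was 0.84 on the log2 scale, against 1.43 without them, and no longer 2-fold. Differences at days 7 and 9 were 0.89 and 0.84, below 2-fold, with adjusted p of 0.0265 and 0.0429. The day 9 difference was 0.98 without the arrays that stood apart (adjusted p = 0.0586). A second Psmb10 probe, with group means correlated at r = 0.99 with the first over 13 groups, was called at days 6, 7, 9 and 14 with differences of 1.33, 1.03, 1.08 and 1.28.

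**Figure D2:**
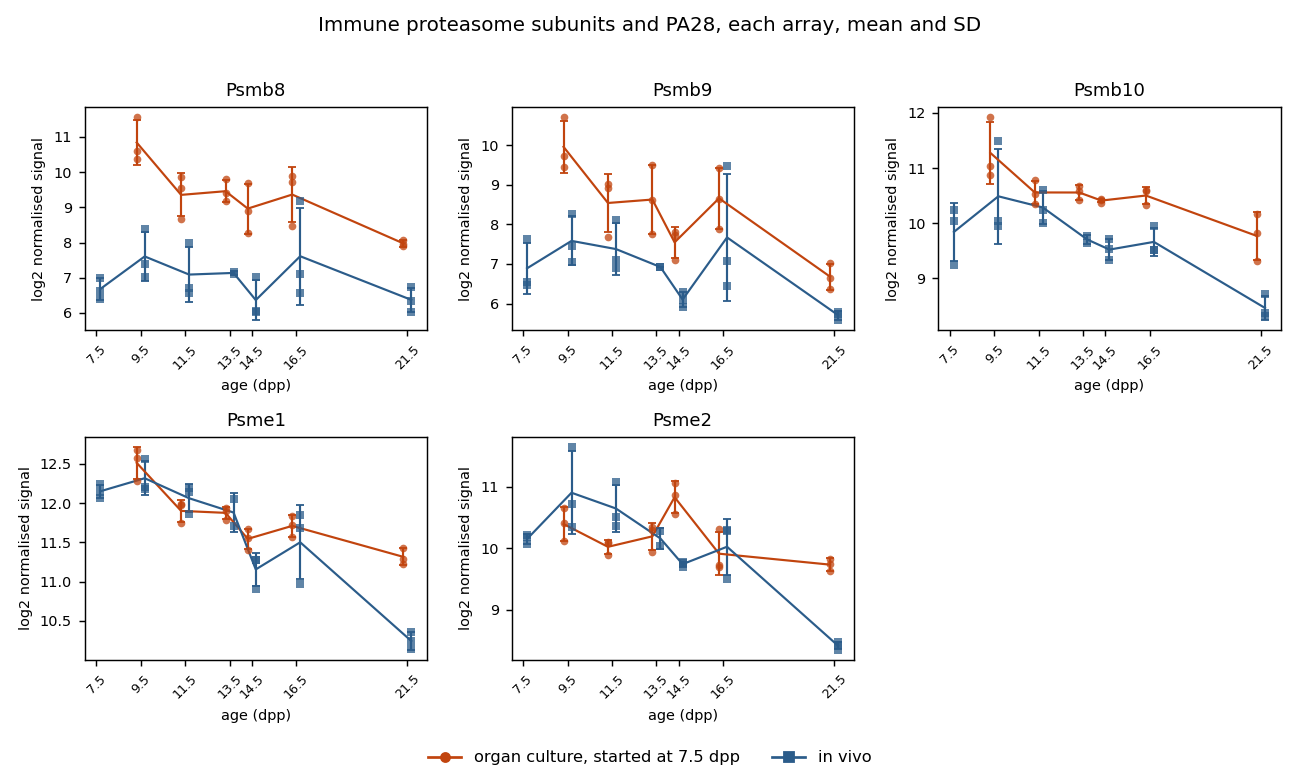
Log2 normalised signal (y axis) of the 5 immune forms by age in dpp (x axis), with each array as a point, group means joined by lines and SD bars. Orange circles are organ cultures started at 7.5 dpp and blue squares in vivo testes. The cultured Psmb8 arrays lie at 10.36 to 11.56 at day 2 and at 7.90 to 8.07 at day 14, and the cultured Psme1 and Psme2 arrays lie above all in vivo arrays at 21.5 dpp.

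Psme1 and Psme2 are the alpha and beta subunits of the interferon-inducible activator. Against in vivo testis Psme1 was called at day 14 only, and Psme2 at days 7 and 14 but not at day 9. Psme1 levels at day 2 were 12.57, 12.29 and 12.68 in culture, against 12.20, 12.57 and 12.18 in vivo at 9.5 dpp, a difference of 0.20 (adjusted p = 0.419), or 0.32 without the 9.5 dpp array that stood apart. At day 14 they were 11.43, 11.22 and 11.29 in culture, against 10.36, 10.24 and 10.14 at 21.5 dpp. All cultured arrays were above all in vivo arrays, by 2.10-fold (adjusted p = 2.25e-06). In vivo Psme1 was lower at 14.5 dpp than at 7.5 dpp (11.28, 11.28 and 10.91, against 12.15, 12.07 and 12.24). The difference of -0.996 lay just under 2-fold and was not called (limma, adjusted p = 3.96e-05). Leaving out 1 array at a time gave a call in 3 of 6 cases. At 21.5 dpp Psme1 was lower again, by 0.91 relative to 14.5 dpp (limma, adjusted p = 2.44e-05). In culture it was also below the starting tissue at day 14, by 0.84 (adjusted p = 0.000254). The change between 14.5 and 21.5 dpp differed between culture and in vivo by 0.68 ± 0.23 (adjusted p = 0.0223), a test that shares its arrays with those above.

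Psme2 was called higher at days 7 and 14. Its levels were 10.87, 10.56 and 11.07 at day 7 in culture, against 9.76, 9.69 and 9.77 in vivo at 14.5 dpp, or 2.13-fold higher (adjusted p = 0.00142). They were 9.75, 9.83 and 9.62 at day 14, against 8.42, 8.46 and 8.35 at 21.5 dpp, or 2.50-fold higher (adjusted p = 2.74e-05). Neither pair overlapped, and within culture day 14 was below day 7 by 1.10 (adjusted p = 0.00135). With median centring the day 7 difference was 0.73 and the day 14 minus day 7 difference -0.48, both no longer called. At days 2 and 4 Psme2 pointed the other way, at -0.51 (adjusted p = 0.126) and -0.63 (adjusted p = 0.0571), and neither was called. Without the arrays that stood apart these were -0.13 and -0.56. At days 6 and 9 the Psme2 differences were 0.03 and -0.11 (limma, adjusted p = 0.956 and 0.779), or 0.16 and -0.36 without those arrays. Its 2 calls thus lie on the days set apart in the split described under other observations. The calls at day 7 and between days 7 and 14 fell just under 2-fold when cultured day 7 replicate 3 was left out (0.97 and -0.98).

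**Figure D3:**
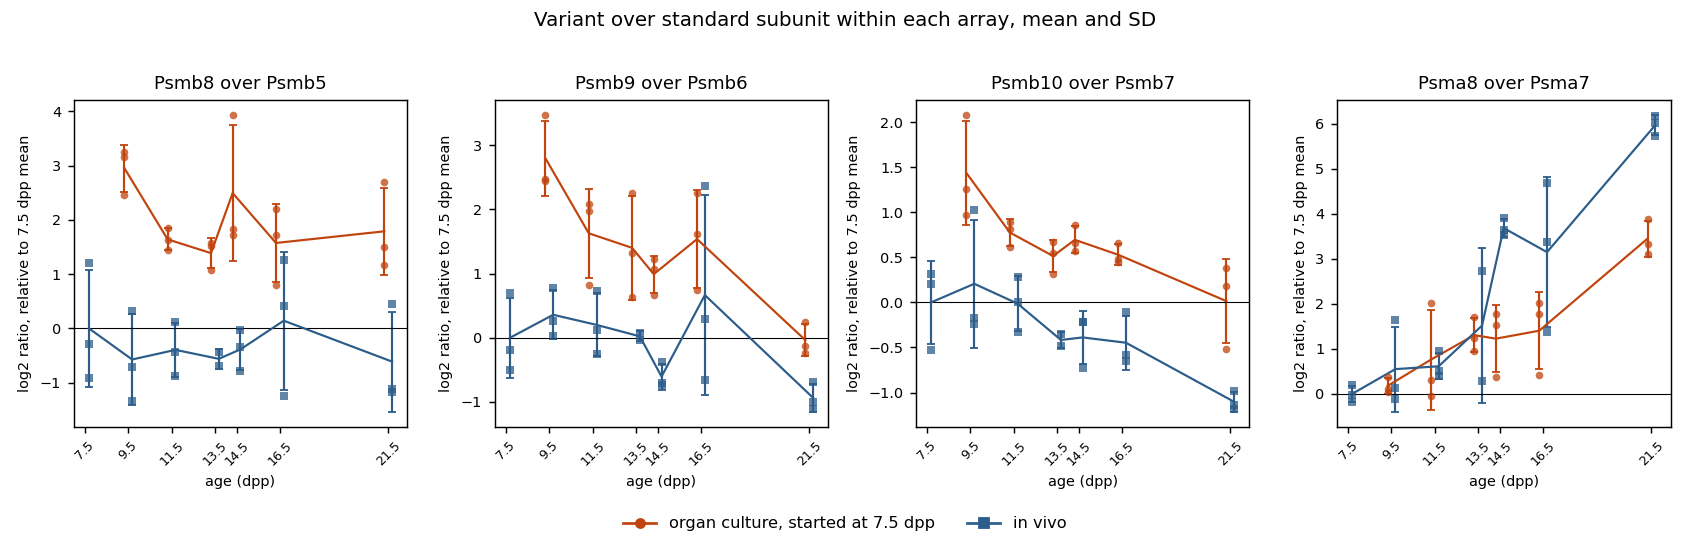
Log2 ratio of each variant subunit over the standard subunit whose place it takes, within each array and relative to the mean of the 7.5 dpp arrays (y axis), by age in dpp (x axis), with group means and SD bars. Orange circles are organ cultures and blue squares in vivo testes. The Psmb8 over Psmb5 ratio was 2.96 at culture day 2 and the Psma8 over Psma7 ratio 5.97 at 21.5 dpp in vivo.

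The standard cutting subunits, which the immune forms replace, were called at 2-fold in none of the 13 comparisons. Psmb6 and Psmb7 group means spanned 0.67 and 0.73 on the log2 scale over all 13 groups. At day 2 Psmb6 had 12.88, 12.90 and 12.64 in culture, against 12.84, 13.12 and 12.65 at 9.5 dpp, with overlap. Psmb7 had 12.85, 12.91 and 12.79, against 13.19, 13.47 and 13.22, with none. On its brightest probe Psmb7 was thus lower in culture by 0.44 at day 2 (limma, adjusted p = 0.00486) and by 0.52 at day 4 (adjusted p = 0.00133). Psmb6, on its brightest probe, passed the test in none of the 6 comparisons. Leaving out the arrays that stood apart, Psmb7 was lower by 0.35 and 0.39 (adjusted p = 0.0252 and 0.00974), and Psmb6 passed at day 6, at 0.38 (adjusted p = 0.0482). On another of the 4 kept Psmb7 probes the arrays overlapped at both days. At day 2 that probe had 12.35, 12.34 and 12.07 in culture, against 12.17, 12.69 and 12.05 at 9.5 dpp. It shared the sign of the brightest probe in 4 of 13 comparisons, and the remaining Psmb7 probes in 12 and 11. Psmb5 was noisier, with 10.26, 9.85 and 9.39 at day 2 in culture, against 10.02, 10.68 and 9.69 at 9.5 dpp (difference -0.29, with overlap, and -0.02 without the array that stood apart). Its group means also split. They were 8.14 to 8.93 at 7.5, 14.5 and 21.5 dpp and at culture days 7 and 14. At 9.5, 11.5, 13.5 and 16.5 dpp and culture days 2, 4, 6 and 9 they were 9.42 to 10.13. Psmb5 was 1.21 higher at culture day 2 than in the starting tissue (limma, adjusted p = 0.0609), with overlap.

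Within each array, ratios to the replaced subunit were set relative to the starting tissue, as plotted pair by pair; they show unequal change within a pair and not amounts of particle. Psmb8 over Psmb5 was 2.96 ± 0.43 (SD, n = 3) at culture day 2, against -0.58 ± 0.84 at 9.5 dpp, and 1.79 ± 0.80 at day 14, against -0.61 ± 0.92 at 21.5 dpp. Psmb9 over Psmb6 was 2.80 ± 0.59 at day 2 and back at -0.04 ± 0.25 at day 14, where in vivo testis stood at -0.94 ± 0.22. Psmb10 over Psmb7 was 1.44 ± 0.58 at day 2 and 0.01 ± 0.47 at day 14, against -1.10 ± 0.11 at 21.5 dpp. At day 14, then, the Psmb9 and Psmb10 ratios were near their starting value in culture and below it in vivo. The Psmb8 ratio had a higher mean than at the start, but the starting arrays themselves had an SD of 1.08. Psmb8 alone was 1.30 above the start at day 14 and not called (limma, adjusted p = 0.0502), and Psmb5 was 0.49 below it (adjusted p = 0.459). For the Psmb8 ratios at day 2 and 9.5 dpp, the group and the starting tissue lie on different sides of the Psmb5 split given above.

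Genes that work with the immune forms were taken from a list of 10, of which 8 were measured. At culture day 2 all but 1 of the 8 were called higher than at 9.5 dpp. The peptide transporter genes Tap1 and Tap2 differed by 2.14 ± 0.44 (adjusted p = 0.000722) and 2.84 ± 0.53 (adjusted p = 0.000296). The class I genes H2-K1, H2-D1 and B2m differed by 1.95, 2.88 and 1.73, the transcription factor gene Irf1 by 1.22, and Nlrc5, the class I transactivator, was at least 3.43-fold higher. The chaperone gene Tapbp, at 1.06, was the one not called (adjusted p = 0.0794). The number called was 4 at day 4, 3 at day 6, 1 at day 7, 2 at day 9 and 4 at day 14, and B2m, the class I light chain, was among them at all 6 times. Of all probes, 8.87% were called at day 2, 9.73% at day 4, 8.28% at day 6 and 10.7% at day 7. The share was 8.49% at day 9 and 33% at day 14, and 46.8% to 66.6% of the called probes were higher. None of the 8 was called lower at any of these times. With the arrays that stood apart left out, the number called was 7 at day 2, 5 at day 4, 3 at day 6 and 1 at day 9.

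Markers of other cell types were read beside these results. At day 2, when Psmb8 and Psmb9 were highest, the mean log2 level of 8 measured macrophage markers was 5.10 to 5.55 in culture, against 7.49 to 8.35 at 9.5 dpp. Of these 8, 7 were called lower, and Adgre1, C1qa, C1qb, C1qc and Ctss were detected on no cultured array of that day (Ctss on no 9.5 dpp array either). The mean of 9 leukocyte markers was 6.01 to 6.27, against 6.40 to 7.41, with 4 called lower. At day 14 both lists were higher in culture: macrophage markers had 8.48 to 9.11, against 7.55 to 7.85 at 21.5 dpp, with 3 called higher, and leukocyte markers had 5 of 9 called higher with a median difference of 1.84. In that comparison 33% of all probes were called, 53.2% of them higher. Endothelial markers were higher in culture at the times between: at days 2, 4, 6, 7 and 9 Pecam1, Cdh5 and Cldn5 were called higher, 3 of 4 measured, with list medians of 1.22, 1.90, 1.84, 1.84 and 2.34. The mean level of the 4 was 8.11 to 8.43 at day 2, against 7.09 to 7.19 at 9.5 dpp, and 8.16 to 8.68 at day 7, against 6.94 to 7.01 at 14.5 dpp. The fourth marker, Kdr, was detected on no array at culture days 2 and 7 or at 7.5, 9.5, 11.5, 13.5 and 16.5 dpp. At day 14 the list had 6.42 to 7.28, against 6.15 to 6.49 at 21.5 dpp, with Cdh5 called higher, and Pecam1, Cdh5 and Cldn5 were called lower at day 14 than at day 7. Of all probes, 8.87%, 9.73%, 8.28%, 10.7% and 8.49% were called in either direction at days 2, 4, 6, 7 and 9. Between culture days 7 and 14 the share was 9.43%. The part of these cell types in the differences of the immune forms was not tested. In whole tissue, more cells that express a gene and more RNA per cell cannot be told apart.

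Psma8, the germ cell alpha subunit, rose with age in vivo and later in culture. In vivo it had 7.93, 8.42 and 8.66 at 7.5 dpp, 11.60, 11.70 and 11.89 at 14.5 dpp, and 12.47, 12.77 and 12.73 at 21.5 dpp. The 3 ages did not overlap; 14.5 dpp was 10.5-fold above 7.5 dpp (adjusted p = 6.46e-05). It was the 1 subunit of 37 called between these ages (2.7%), against 12.9% of all probes. The step of 0.93 between 14.5 and 21.5 dpp was not called (adjusted p = 0.178). The group means at 9.5 and 11.5 dpp lay close together, and 13.5 and 16.5 dpp spread widely (8.77 and 11.02, and 11.73, 9.78 and 12.57), so their place in the order is not settled.

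In culture Psma8 had 9.14, 9.97 and 10.34 at day 7, against 11.60 to 11.89 in vivo at 14.5 dpp, or 3.77-fold lower (adjusted p = 0.0155). All cultured arrays were below all in vivo arrays; the call was lost when cultured replicate 1 (-1.58) or 14.5 dpp replicate 3 (-1.83) was left out. At day 14 it had 11.57, 11.26 and 12.03, against 12.47 to 12.77 at 21.5 dpp. These again did not overlap, and the difference of -1.04 was not called (adjusted p = 0.133). Day 14 was 9.75-fold above the starting tissue (adjusted p = 7.76e-05), the only subunit called in that comparison, where 14.4% of all probes were called. It was 3.50-fold above day 7 (adjusted p = 0.0224), a call lost without cultured day 14 replicate 3 (1.60) or day 7 replicate 1 (1.47). At days 2, 4 and 6 the differences from in vivo testis were -0.49, -0.09 and -0.25, none called; without the arrays that stood apart they were 0.14, -0.75 and -0.13. At day 9 it was -1.58 (adjusted p = 0.0533), and -1.94 without the arrays that stood apart (adjusted p = 0.0265). Leaving out 16.5 dpp replicate 2 (-2.37) or cultured day 9 replicate 2 (-1.82) also gave a call.

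**Figure D4:**
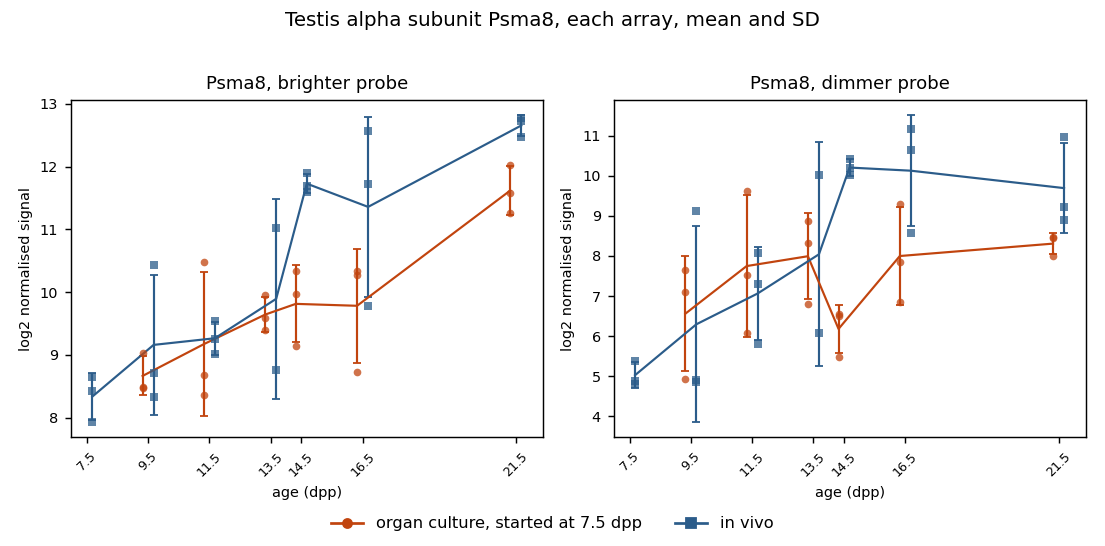
Log2 normalised signal (y axis) of the 2 Psma8 probes by age in dpp (x axis), with each array as a point, group means joined by lines and SD bars. Orange circles are organ cultures and blue squares in vivo testes. On the brighter probe the cultured arrays at day 7, 9.14 to 10.34, lie below the in vivo arrays at 14.5 dpp, 11.60 to 11.89.

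A second, dimmer Psma8 probe was also lower at day 7, as the plot of both probes shows. It was not detected at 7.5 dpp and was at least 23.6-fold higher at 14.5 dpp, with 10.18, 10.02 and 10.42; its arrays at 21.5 dpp, 10.97, 9.21 and 8.90, lay on both sides of those. At day 7 it was detected on 2 of 3 arrays, with 5.48, 6.50 and 6.56, all below those at 14.5 dpp (adjusted p = 0.00388). The size of that difference is not well measured, because these values are near background. Day 14 was 2.13 above day 7 and not called (adjusted p = 0.119).

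Markers of pachytene spermatocytes, the cells in which Psma8 is known to act, moved in the same direction. The mean log2 level of 10 measured markers was 7.57 to 8.12 at culture day 7, against 8.98 to 9.46 at 14.5 dpp, with 4 called lower and none higher. It was 9.53 to 10.13 at day 14, against 11.19 to 11.27 at 21.5 dpp, with 4 called lower. At the start it was 6.12 to 7.01, with 6 of the 10 detected on no array. Pgk2, Ccna1 and Tbpl1 were detected on no array at culture day 7, and Ccna1, Tbpl1 and Spag6 on none at 14.5 dpp. The share of all probes called was 10.7% at day 7 and 33% at day 14, with 46.8% and 53.2% of them higher. Round spermatid markers had 5.78 to 6.05 at day 14, against 9.97 to 10.34 at 21.5 dpp. Of the 7 measured, Tssk2, Izumo1 and Spata18 were detected on no array at culture day 14, so that mean is partly background. The part of cell numbers in the Psma8 differences was not tested.

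Psma7, the alpha subunit that Psma8 replaces, was higher in culture at the last age. It had 12.58, 12.49 and 12.48 at culture day 14, against 11.10, 11.09 and 10.91 at 21.5 dpp, or 2.80-fold higher (adjusted p = 2.61e-11), with no overlap. In vivo, 21.5 dpp was below 14.5 dpp (12.43, 12.41 and 12.34) by 1.36 (adjusted p = 1.72e-10). At culture day 7, with 13.10, 12.78 and 12.92, it was 0.54 above 14.5 dpp (adjusted p = 0.00262). The second Psma7 probe gave 1.45 at day 14 but -0.06 at day 7 (adjusted p = 0.80), so the day 7 difference holds for 1 probe only. The ratio of Psma8 over Psma7 relative to the start was 3.45 ± 0.40 (SD, n = 3) at culture day 14, against 5.97 ± 0.23 at 21.5 dpp, and 1.23 ± 0.74 at day 7, against 3.68 ± 0.19 at 14.5 dpp.

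The structural subunits of the rings moved together at the last age. Counting by adjusted p alone, all 4 measured alpha subunits (Psma2, Psma4, Psma5 and Psma7) were higher at culture day 14 than at 21.5 dpp, with differences of 0.41 to 1.48. With median centring the count was 3 of 4. All 4 non-cutting beta subunits (Psmb1, Psmb2, Psmb3 and Psmb4) were also higher, by 0.49 to 0.85. Of all probes, 34.2% were higher by this rule and the median of all probes was 0.23. The same 8 genes were lower at 21.5 than at 14.5 dpp in vivo. There, 4 of 31 standard subunits were higher and 14 lower, against 20.8% and 36.3% of all probes, and the 2 comparisons share the 21.5 dpp arrays. With median centring all 4 of these beta subunits again passed at day 14, but between 14.5 and 21.5 dpp in vivo only 1 of 4 alpha and 1 of 4 non-cutting beta subunits did.

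By adjusted p alone, 14 of 31 standard subunits were higher and 5 lower at culture day 14, against 34.2% and 22% of all probes. In vivo, between 14.5 and 21.5 dpp, 5 of 37 subunits were called at 2-fold (13.5%, background 32.8%): Psmc3 and Psme4 higher, and Psma7, Psmb10 and Psme2 lower. On brightest probes, Psma2 was the one ring subunit whose change between 14.5 and 21.5 dpp differed by over 2-fold between culture and in vivo, at 1.04 ± 0.13 (adjusted p = 1.78e-07); 2 of 37 subunits (5.41%) were called in that test, against 25.7% of all probes. For Psma7 the difference of changes was 0.95 on its brightest probe and 1.51, past 2-fold, on its second. The Psma2 levels were 13.27, 13.38 and 13.45 at culture day 7 and 13.68, 13.78 and 13.74 at day 14, against 13.72, 13.82 and 13.70 at 14.5 dpp and 13.06, 13.09 and 13.08 at 21.5 dpp. Cultured arrays were higher at the later time and in vivo arrays lower, with no overlap in either. The call lies at the 2-fold limit: it was lost without 14.5 dpp replicate 2 (just under 1.00) or cultured day 7 replicate 1 (0.99).

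**Figure D5:**
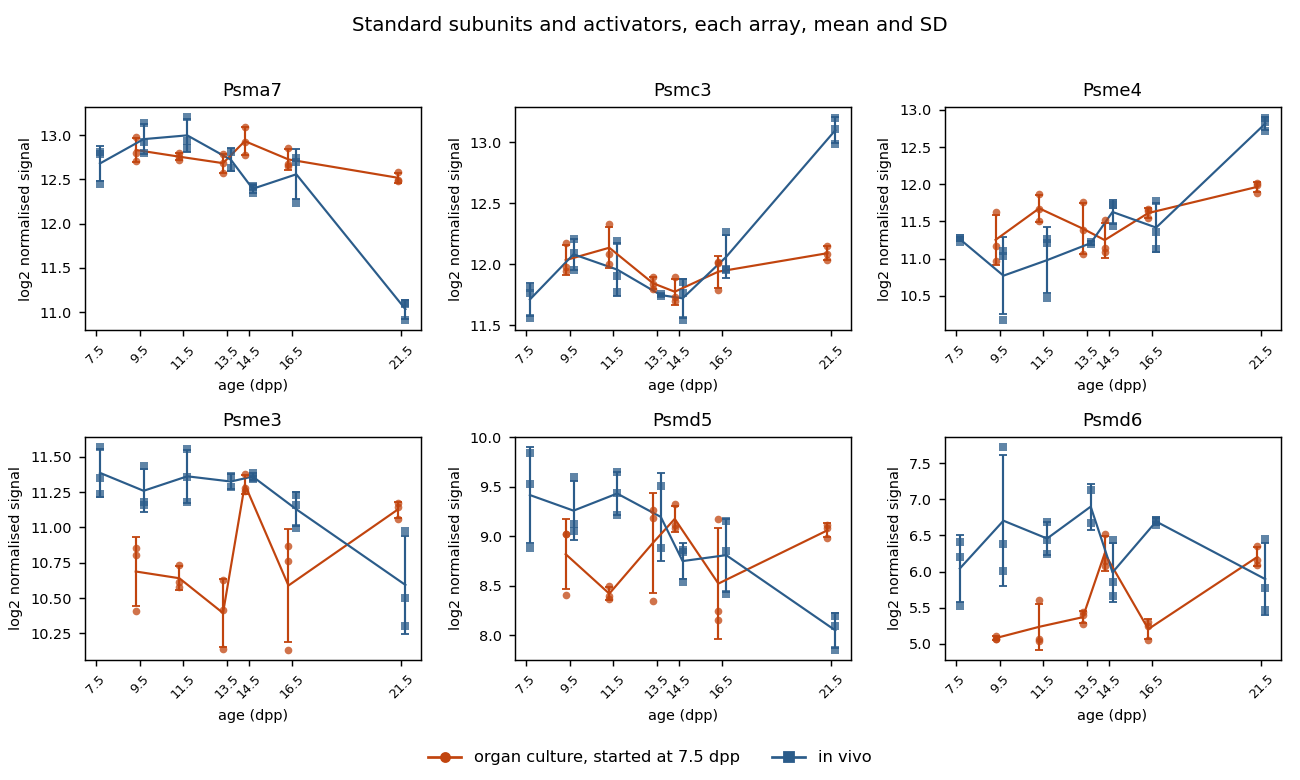
Log2 normalised signal (y axis) of 6 standard subunits and activators by age in dpp (x axis), with each array as a point, group means joined by lines and SD bars. Orange circles are organ cultures and blue squares in vivo testes. The Psmc3 arrays lie at 12.04 to 12.15 at culture day 14, against 12.99 to 13.20 at 21.5 dpp in vivo, and those of Psme4 at 11.89 to 12.02, against 12.72 to 12.89.

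Among the ATPases of the cap, Psmc3 was the one called. It had 12.04, 12.15 and 12.09 at culture day 14, against 13.11, 13.20 and 12.99 at 21.5 dpp, 1.01 lower (adjusted p = 2.87e-08) with no overlap, as the plot of standard subunits by age shows. In vivo it was 1.38 higher at 21.5 than at 14.5 dpp (adjusted p = 3.26e-11), and the change over that week differed between culture and in vivo by -1.06 ± 0.17 (adjusted p = 1.1e-05). With median centring that difference was -0.74, no longer 2-fold. The day 14 call also lies at the limit: leaving out 1 of its 6 arrays lost it in 2 cases, with -0.96 (21.5 dpp replicate 2) and -0.98 (cultured replicate 1). Psmc2, another ATPase, was lower at day 14 by 0.62 (adjusted p = 0.000202), while Psmc1 and Psmc4 were higher by 0.38 and 0.35 (adjusted p = 0.0361 and 0.0106), so the 5 measured ATPases did not move as a unit.

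Of 13 measured Psmd genes, counted by symbol as non-ATPase subunits of the cap, Psmd5 and Psmd6 were called against in vivo testis. Psmd5 is a chaperone of cap assembly. It had 8.40, 8.49 and 8.37 at culture day 4, against 9.44, 9.21 and 9.65 at 11.5 dpp, 1.01 lower (adjusted p = 0.00628). At day 14 it had 9.11, 9.09 and 8.98, against 7.85, 8.10 and 8.20 at 21.5 dpp, 1.01 higher (adjusted p = 0.00176). The groups overlapped at neither time, and both differences lie at the 2-fold limit: each call was lost in 3 of 6 cases when 1 array was left out. These were 11.5 dpp replicate 3 and cultured replicates 1 and 3 at day 4, and 21.5 dpp replicate 1 and cultured replicates 1 and 2 at day 14. The Psmd5 difference at day 4 was -0.99 without the arrays that stood apart. On the authors' deposited log2 values the differences were -0.74 at day 4 and 0.67 at day 14, both under 2-fold.

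Psmd6, a subunit of the lid of the cap, was close to the detection limit. It was detected on no array at culture day 2 (5.06, 5.06 and 5.10), against 6.01, 7.73 and 6.38 at 9.5 dpp, which bounds it at least 2.23-fold lower (adjusted p = 0.000229). It was also undetected at day 6, at least 2.64-fold below 13.5 dpp (adjusted p = 0.00175), and at day 9, at least 2.17-fold below 16.5 dpp (adjusted p = 0.000675). Without 13.5 dpp replicate 3 the day 6 call was lost (-1.31), and without the 9.5 dpp array that stood apart the day 2 difference was -1.12 on the log2 scale, against -1.63 with it. Without the arrays that stood apart the differences at days 4, 6 and 9 were -1.41, -1.49 and -1.52, all still called. At day 4 it was 1.23 lower (adjusted p = 0.00371) and detected on 1 of 3 cultured arrays. At day 7 it had 6.15, 6.53 and 6.08 and at day 14 6.09, 6.17 and 6.35, overlapping with in vivo testis. On the authors' deposited log2 values, the differences at days 2, 4, 6 and 9 were -0.42, -0.27, -0.40 and -0.35, under 2-fold. The second Psmd6 probe was called nowhere.

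Psmd2, a scaffold of the cap base, had a wide span of group means (1.97) and was called in no comparison. Its levels were 6.55, 6.29 and 6.94 at culture day 14, against 6.95, 7.35 and 7.46 at 21.5 dpp, a difference of -0.66 (adjusted p = 0.154). The groups did not overlap, though their nearest arrays differed by little, and the probe is dim.

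The other activators went in opposite directions at the last age. Psme4, which opens the barrel and is known in mouse for the removal of acetylated histones in spermatids, had 11.89, 12.02 and 11.99 at day 14 in culture, against 12.72, 12.89 and 12.84 at 21.5 dpp. It was 0.85 lower (adjusted p = 0.0012) with no overlap, and in vivo it was 1.19 higher at 21.5 than at 14.5 dpp (adjusted p = 2.37e-05). Within culture it was 0.72 higher at day 14 than at day 7 (adjusted p = 0.014). A second, dimmer Psme4 probe had group means of 6.43 at culture day 14, 7.88 at 21.5 dpp and 6.38 at 14.5 dpp, wider gaps in the same directions. On its brightest probe Psme4 was 0.70 higher in culture at day 4, the 1 culture time at which it passed the test upward. Without the arrays that stood apart that difference was 0.60. Psme3, the nuclear relative of Psme1, had 11.14, 11.17 and 11.06 at day 14, against 10.50, 10.31 and 10.98, 0.53 higher (adjusted p = 0.00779). Earlier it was lower in culture, by 0.57 at day 2, 0.72 at day 4, 0.93 at day 6 and 0.54 at day 9 (adjusted p = 0.0136, 0.00247, 0.000758 and 0.0217), with no overlap at any of these. Without the arrays that stood apart these differences were -0.61, -0.69, -1.05 and -0.57: day 6 was then called at 2-fold (adjusted p = 0.000808) and day 9 no longer passed (adjusted p = 0.111). At day 7 the difference was -0.06 (adjusted p = 0.841).

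Against the starting tissue, 3 of 37 subunits (8.11%) were called at day 2, all of them higher immune cutting subunits, with a background of 8.62%; Psmb10 among them fell under 2-fold with array quality weights. At day 7 Psmb8 was the only one called, 2.28 above the start (adjusted p = 0.00142; background 8.12%). Between culture days 7 and 14, Psma8 was called higher and Psme2 lower, 2 of 37 (background 9.43%). These comparisons share the starting arrays or the day 7 arrays with others above.

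A list of 24 assembly factors, receptors and regulators of the proteasome had 14 measured genes. At culture day 14, 2 of them were called higher than at 21.5 dpp: Nfe2l1 and Nfe2l2, transcription factor genes of which Nfe2l1 is known to drive subunit genes when proteasomes are inhibited. Of all probes 33% were called there, 53.2% of them higher. The same 2 were called lower at 21.5 than at 14.5 dpp in vivo (background 32.8%, with 46.4% of called probes higher). In the difference of changes between 14.5 and 21.5 dpp 5 of 14 were called higher, Ecpas, Nfe2l1, Nfe2l2, Ubqln1 and Vcp. Of all probes 25.7% were called in that test, 54.2% of them higher. At day 2 the deubiquitinase gene Uchl5 was called lower, and at day 7 Ecpas, which tethers the cap to the barrel. No other gene of the list was called in these 5 comparisons.

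Of the member genes, 22 had more than 1 kept probe, and in no comparison were 2 probes of a gene called in opposite directions. The group means of 2 probes correlated at r = 0.94 for Psmb8, 0.98 for Psme1, 0.86 for Psma8, 0.94 for Psma7 and 0.87 for Psme4, over 13 groups that share these arrays. They did not follow each other for Psmd1 (-0.36 for 1 of its probes), Psmd11 (-0.04) and Psma5 (0.03), so the Psma5 values above hold for its brightest probe. The correlation with the brightest probe was also low for 1 probe each of Psmd7 (0.16), Psmb7 (0.19), Psmd9 (0.22) and Psmd12 (0.34). Psme3ip1, the partner of Psme3, was lower in culture at day 7 by 0.70 ± 0.13 (adjusted p = 0.000361) and reached 2-fold nowhere. Psme2, Psma5, Psmb5, Psmb6 and Psmb7 have near-identical copies or pseudogenes in the mouse, and which copy such a probe measured is uncertain.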

How the data were processed

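Per the file headers, the authors deposited for each array the probe intensity (bead signal, not normalized) and a detection p-value against negative controls. Their deposited log2 values were normalized between arrays, with lumi among the tools in the submitters' processing notes (version not given in the sources used here). Intensities were background-corrected and quantile-normalized with neqc in limma 3.58.1 (R 4.3.3, offset 16), which took negative controls from the detection p-values. One signal column, headed by an array code, was not used, which leaves 38 arrays and 2 at 13.5 dpp. Probes detected (p below 0.01) on 3 or more arrays entered 1 fit with a mean per group (lmFit, eBayes with trend, 25 residual degrees of freedom), and p-values were adjusted by Benjamini-Hochberg over 23665 probes. Errors of differences are standard errors.

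A gene stands for its brightest kept probe. Levels are per array for the immune forms, Psma8, the subunits they replace, Psme3, Psme4 and the 3 other members with the widest span of group means. Other subunits called at 2-fold are named, and Psma4, Psma5, Psmb1, Psmb2, Psmb3, Psmb4, Psmc1, Psmc2, Psmc4 and Psmd14 were named after their values were seen. Members and lists were chosen with earlier results of these data known. Platform symbols named 34885 probes with 1 gene, 18 with several and 10378 with none. Bounds written "at least" use, per array, the higher of the probe's own value and the lowest detected signal. Levels of different probes were not set against each other.

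Same-numbered arrays deviated together (r over 0.1 in all 3 pairs) only for culture day 14 and day 7 (0.34 to 0.43), among 11 comparisons with 3 pairs; other pairs ranged from -0.47. The fit was tested on simulated data. Alternatives changed the normalization, background correction, filter, probes, arrays and pairing. No slide is named in the file headers, so no batch could be tested, and the number of arrays limits the precision.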

Additional observations from a re-analysis of the deposited data

Results flagged for a closer look

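The change of Psma2 between 14.5 and 21.5 dpp differed between culture and in vivo testis by 1.04 ± 0.13 (SE) on the log2 scale (limma, adjusted p = 1.78e-07), with a rise in culture and a fall in vivo. The change of Psmc3, an ATPase of the cap, over the same week differed by -1.06 ± 0.17 (limma, adjusted p = 1.1e-05), with the larger rise in vivo; without 14.5 dpp replicate 3 it was -0.97, under 2-fold.

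Psmd5, the cap assembly chaperone, differed in opposite directions at 2 ages: by -1.01 at culture day 4 against 11.5 dpp and by 1.01 at culture day 14 against 21.5 dpp. Each group of arrays lay wholly to one side of its partner, and the difference between these ages was not tested. Psmd5 differed by -0.44, -0.26 and -0.29 at culture days 2, 6 and 9 and by 0.43 at day 7, none of them called. These signs follow the split of days described under other observations.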

How the results depend on the processing

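Counts of called subunits moved by over 1.5 times as follows. On the authors' deposited log2 values, over the same arrays as over all 39, the counts were 1 at day 4, 1 at day 6, 2 at day 7, 3 at day 14 against 21.5 dpp, 3 for 21.5 against 14.5 dpp and 1 for day 14 against day 7. With median centring they were 4 at days 6 and 9, 2 for 14.5 against 7.5 dpp, 4 and 2 for days 7 and 14 against the start, 4 for day 14 against day 7 and 6 for the difference of changes. Without background correction they were 1 at days 4 and 6. With array quality weights they were 4 at days 6 and 9, 2 for 14.5 against 7.5 dpp, and 3 and 2 for days 7 and 14 against the start. With only the compared groups in the fit they were 1 at day 9, and 2 and 2 for days 7 and 14 against the start. Day 14 against the start gave 2, with Psmb8 added, when probes had to be detected on 13 arrays, with 1 probe per gene and with the replicate block. Without the arrays that stood apart, an alternative chosen after seeing the data, day 6 gave 4. No named difference that passed at 2-fold changed sign.

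Leaving out 1 array at a time gave 3 to 4 at day 2, 2 to 3 at day 4, 1 to 4 at day 6, 2 to 3 at day 7, 1 to 4 at day 9 and 5 to 7 at day 14. It gave 1 to 2 for 14.5 against 7.5 dpp, 4 to 6 for 21.5 against 14.5 dpp, 3 to 4, 1 to 2 and 1 for days 2, 7 and 14 against the start, and 1 to 2 for day 14 against day 7 and for the difference of changes. The replicate block changed no call between culture days 14 and 7, where same-numbered arrays deviated together. Elsewhere the block also called Psma8 lower at day 9 (-1.58).

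Quantile normalization and median centring split all called probes differently. The share called higher with median centring, against quantile normalization, was 65.9% against 52.4% at day 2, 32% against 66.6% at day 6, 12.7% against 46.8% at day 7 and 41% against 55.2% at day 9. Against the start it was 12% against 48.5% at day 7 and 67.1% against 53.7% at day 14. It was 97.5% against 62.6% for day 14 minus day 7 and 78.2% against 54.2% for the difference of changes. The median of all probes was then -0.31 at day 6, -0.27 at day 7, 0.34 at day 14, -0.33 for day 7 minus the start, 0.45 for day 14 minus day 7 and 0.64 for the difference of changes.

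With the authors' values Psmb10 at day 14 was 0.99, and Psme2 was 0.99 at days 7 and 14, all just under 2-fold. Psma8 at day 14 was called with array quality weights (-1.05) and with only the compared groups in the fit (-1.04). The cause of these changes was not tested. A slide block was not run. Signal over background limits Psmd2, Psmd6, and the second probes of Psmb8 and Psma8.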

Other observations

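Some standard subunits were lower in culture at days 2, 4, 6 and 9 but not at days 7 and 14; they were picked after their values were seen. Psma4, of the alpha ring, differed from in vivo testis by -0.42, -0.42, -0.56 and -0.51 at days 2, 4, 6 and 9 (limma, adjusted p between 0.000255 and 0.00171), by 0.13 at day 7 and by 0.57 at day 14. Psmd14, the deubiquitinase of the cap lid, differed by -0.93, -0.49, -0.78 and -0.92 at the same 4 days, by 0.14 at day 7 and by 0.61 at day 14; its day 4 value did not pass (adjusted p = 0.0637). Without the arrays that stood apart Psma4 differed by -0.36, -0.40, -0.52 and -0.52, all still passing, and Psmd14 by -0.81, -0.53, -0.68 and -0.86, again with day 4 not passing (adjusted p = 0.0712). Psme3 and Psmd6 showed the same split of days. The Psmb5 group means split by the same culture days and also by in vivo age. Those at 7.5, 14.5 and 21.5 dpp lay with culture days 7 and 14. The labels name no batch, and whether days 7 and 14 and these ages were processed apart from the other groups was not tested.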
